A study of Capitella teleta with 10 samples.

Results

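The mid-larval peak set consists of 150 transcript models of the annelid *Capitella teleta* that were more abundant in every library of the larval stages 4tt and 5 than in any library of the 64-cell embryo, the gastrula or stage 7. The members were chosen by measured values of the same 10 libraries described here. A model first had to reach a normalized read count of 50 in all 4 libraries of stages 4tt and 5, which 16773 of the 41221 models (40.7%) did. Each of these was scored as the log2 ratio of its lowest value in those 4 libraries to its highest value in the 6 other libraries, with 1 added to both. The score was above 0 for 980 models, and the 150 with the largest scores were taken, so that 830 models of the same general form were left out. The peak itself is therefore how the set was made and not a result.

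*C. teleta* was sampled as whole embryos and larvae, with 2 libraries each of 64-cell embryos and gastrulae and of the later stages 4tt, 5 and 7. The labels call the stage 4tt samples embryos, whereas the study counts this stage as an early larva. No treatment or mutant strain is named for any group, and the sources used here do not give the number of individuals in a library. The values are read counts per transcript model that the authors normalized across stages, and they summed to between 32883200 and 55846793 in a library. In bulk samples of whole animals, a change in the number of cells that express a gene and a change in its RNA per cell cannot be told apart.

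The larva of *C. teleta* lives on yolk, swims with bands of cilia and forms the segments, chaetae, gut and nervous system of the worm before it metamorphoses. It therefore holds structures that serve the larva for a short time beside tissues that persist in the adult. The deposited values name the members by identifier only. Of the 31977 genes in a reference table for this species, 0 could be matched to an identifier of the deposited values, so no function, position or sequence is given for any member, and markers of muscle, cilia, neurons, chaetae, gut, yolk or Hox patterning could not be looked up among them.

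The scores ran from 2.86 to 0.83 with a median of 1.19, which are ratios of 7.24, 1.77 and 2.28. Only 12 members scored above 2 and 103 scored above 1, so for most of them the margin between the weakest peak library and the strongest other library was modest. The lower edge of the set did not fall at a gap. CTELG00000000974.1, the last member inside it, had 181 and 157 normalized counts in stage 4tt samples, 274 and 132 in stage 5 samples, and at most 74.1 in any other library, with a score of 0.8278. CTELG00000012583.2, the first model outside it, had 211 and 147 in stage 4tt samples, 149 and 137 in stage 5 samples, and at most 76.7 elsewhere, with a score of 0.8263. The scores of these neighbours were thus nearly equal.

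The members covered a wide range of abundance. Their mean over the 4 libraries of stages 4tt and 5 ran from 73.4 to 48525 normalized counts with a median of 502, and 50 members were above 1000 while 8 were below 100. The median member had 14.6 and 16.2 normalized counts in the 64-cell libraries, 51.8 and 59 in the gastrula libraries, 435 and 578 in the 4tt libraries, 515 and 466 in the stage 5 libraries, and 108 and 125 in the stage 7 libraries. Together the members held 0.0276% ± 0.000612 of a library's normalized counts in 64-cell embryos, 0.115% ± 0.0319 in gastrulae, 0.741% ± 0.222 in stage 4tt samples, 0.696% ± 0.0959 in stage 5 larvae and 0.218% ± 0.0236 in stage 7 larvae (SD, n = 2 for each). The shares at stages 4tt and 5 differed by less than their spread between replicates, and at stage 4tt the replicates themselves were apart, with 0.583% and 0.898%.

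**Figure D1:**
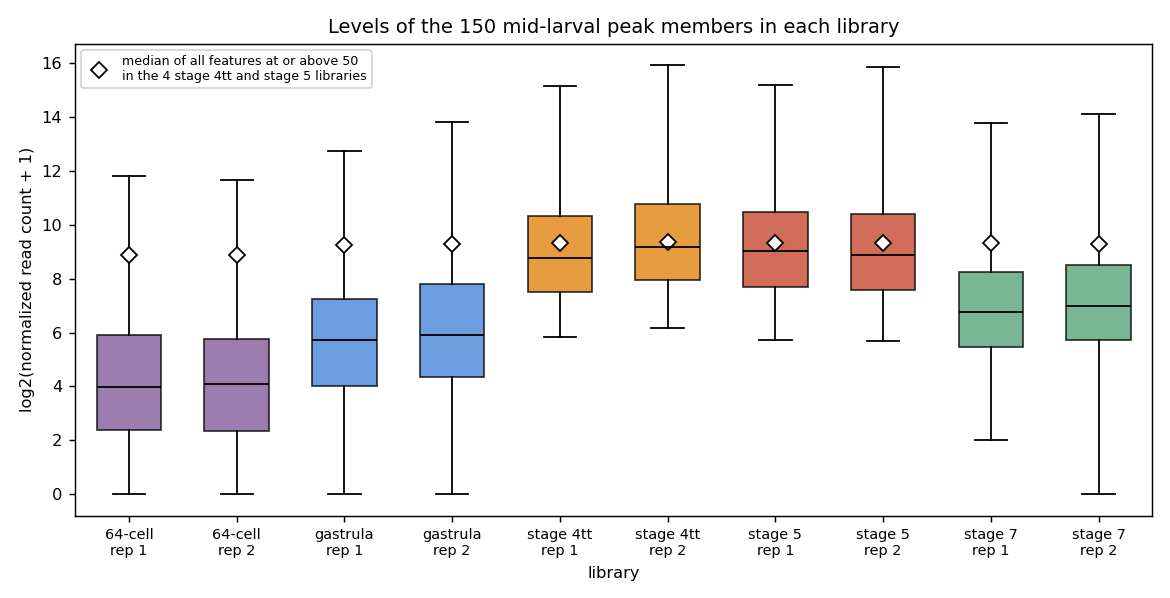
Levels of the 150 members in each of the 10 libraries, as log2(normalized read count + 1); boxes span the quartiles, the black line is the median and whiskers reach the lowest and highest member. In the 4 peak libraries the member medians lie between 435 and 578 normalized counts, and at 125 or less in the others, while the median of all 16773 models with at least 50 counts at stages 4tt and 5 (white diamonds) stays between 471 and 648.

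The largest scores belonged to models of very different abundance. CTELG00000005388.1 ranked first and was scarce. It was listed at 0 in both 64-cell libraries, had 8.64 and 13.9 normalized counts in gastrulae, 113 and 247 in stage 4tt samples, 107 and 129 in stage 5 larvae, and 5.07 and 9.65 in stage 7 larvae. Its level at stage 7 was thus about as low as at the gastrula, though above that of the 64-cell stage. CTELG00000023950.1 ranked second and was abundant, with 13.2 and 11.3 normalized counts in 64-cell embryos, 434 and 1031 in gastrulae, 6800 and 10339 in stage 4tt samples, 6330 and 5976 in stage 5 larvae, and 259 and 449 in stage 7 larvae. CTELG00000020238.1 had 29.2 and 14.2, then 355 and 198, then 3576 and 3147, then 4679 and 4893, and finally 244 and 547 normalized counts over the same 5 stages. Both models were already well above their 64-cell level at the gastrula. CTELG00000019794.1 ran through 14.2 and 9.84, 67.6 and 99.9, 1105 and 1562, 1178 and 1227, and 155 and 209.6 normalized counts. CTELG00000023107.1 was listed at 0 in both 64-cell libraries and in gastrula replicate 1, and its lowest peak library, stage 5 replicate 2, lay at the minimum for membership. Its 3 other peak libraries had 84.3, 101 and 88 normalized counts.

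The 5 most abundant members ranked no higher than 86 by score. CTELG00000015843.1 alone had 36110 and 61750 normalized counts in stage 4tt samples and 37398 and 58842 in stage 5 larvae. In 64-cell embryos it had 7.46 and 4.05, in gastrulae 6488 and 14249, and in stage 7 larvae 13877 and 17914, so that it stayed abundant on both sides of the peak after being nearly absent from the 64-cell embryo. Without it, the members' share of the normalized counts was 0.0909% at the gastrula and 0.609% at stage 4tt. This share was 0.564% at stage 5 and 0.17% at stage 7, and it stayed at 0.0276% at the 64-cell stage. CTELG00000000144.1 had a similar course at a lower level, with 23.1 and 13.7 normalized counts in 64-cell embryos, 2104 and 3785 in gastrulae, 10808 and 18831 in stage 4tt samples, 10196 and 15111 in stage 5 larvae, and 3327 and 4864 in stage 7 larvae. CTELG00000000351.1 differed in that it was abundant from the start, with 2793 and 2580 normalized counts in 64-cell embryos, then 6773 and 4644 in gastrulae, 25022 and 22388 in stage 4tt samples, 22232 and 14121 in stage 5 larvae, and 7054 and 5985 in stage 7 larvae. CTELG00000000614.1 and CTELG00000001524.1 completed this group, with means of 9482 and 8088 over the 4 peak libraries.

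The members were then divided by which of the other 3 stages had the highest mean. For 115 members this was stage 7, for 25 the gastrula and for 10 the 64-cell stage. Which of these 3 stages has the highest median in a group is therefore fixed by the division. The division was not made for the models outside the set. The 115 members had medians of 15.2 normalized counts in 64-cell embryos, 53 in gastrulae, 507 in stage 4tt samples, 533 in stage 5 larvae and 139.7 in stage 7 larvae. The 25 members had medians of 21.6, 189, 793, 655 and 93.8 over the same stages. The 10 members had medians of 46.6, 11.4, 181, 162 and 27.3, where a gastrula level below that of the 64-cell stage and of the peak followed from the grouping and from the rule for membership. In both libraries of the 64-cell stage, 15 members were listed at 0 and 17 were above 100 normalized counts. No member was at or below 2 in all 6 libraries outside the peak (0 of 150), and 0 members were at or below 2 in both stage 7 libraries. Every member thus had more than 2 normalized counts in at least 1 stage 7 library, although CTELG00000001254.2 was listed at 0 in stage 7 replicate 2.

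**Figure D2:**
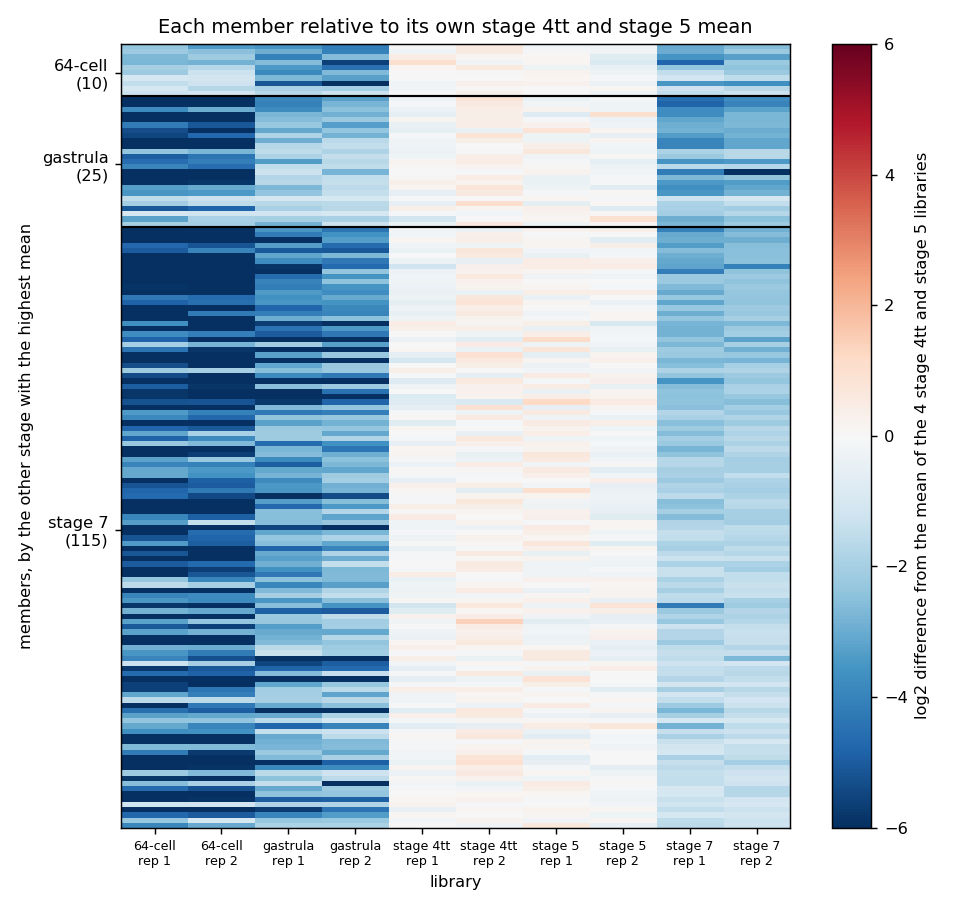
Each of the 150 members (rows) in each of the 10 libraries (columns), as the log2 difference from its own mean over the 4 libraries of stages 4tt and 5; values below -6 are drawn in the darkest blue. Rows are grouped by which other stage has the highest mean, which is the 64-cell stage for 10 members, the gastrula for 25 and stage 7 for 115, and the 64-cell columns are the darkest in the lower groups.

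To ask whether the members differed between the stages of the peak, stage 5 was compared with stage 4tt by limma-trend, fitted to the 35526 models with more than 2 normalized counts in 2 or more libraries. All 150 members passed this filter, as the rule for membership required. A call needed a difference of more than 1 between the mean log2(value + 1) of the stages and a Benjamini-Hochberg adjusted p under 0.05. At stage 5, 0 members were called higher and 0 were called lower by limma. Of all models tested, 0.327% were called higher and 0.234% lower, so a count of 0 among 150 is near the background and is not a result about the members. At an unadjusted p under 0.05 with the same minimum fold change, 1 member was higher and 0 were lower. The rule asked all 4 libraries to be high, which restricts this comparison. The median difference was -0.08 on the log2 scale with a median standard error of 0.48, and single members ran from -1.14 to 1.69. Its sign turned with the library left out: it was 0.14 without stage 4tt replicate 2 and 0.04 without stage 5 replicate 2, against -0.26 without stage 4tt replicate 1 and -0.17 without stage 5 replicate 1.

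The 1 member with an unadjusted p under 0.05 and a difference above 1 was also the member whose 4 peak libraries differed most. CTELG00000009450.1 had 1719 and 1056 normalized counts at stage 5, against 443 and 394 at stage 4tt. The groups did not overlap, and the log2 fold change was 1.69 (SE 0.40), but the adjusted p was 0.122 by limma and lay between 0.0788 and 0.479 over the alternatives. Over all members, the ratio of the highest to the lowest of the 4 peak libraries had a median of 1.79, against 1.6 over the 16773 models that met the minimum, and it exceeded 2 for 52 members.

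The order of the 4 peak libraries was uneven. Stage 4tt replicate 2 was the highest of the 4 for 78 members and stage 5 replicate 1 for 47, whereas stage 4tt replicate 1 was the highest for 11 and stage 5 replicate 2 for 14. Replicate 2 exceeded replicate 1 for 112 members (74.7%) at stage 4tt, against 52.7% of the 16773 models that met the minimum, and for 59 members (39.3%) at stage 5, against about 50% of those models. The replicate difference of a member at stage 4tt and its replicate difference at stage 5 were correlated across members (r = 0.644 over 150 members, which share their libraries). Across all models tested r was 0.221, but these include models with low counts. No r was taken over the models that met the minimum, so these values are not a like comparison. A similar unevenness stood outside the peak. Replicate 2 exceeded replicate 1 for 106 members (70.7%) at the gastrula and 102 (68%) at stage 7, against 49.1% and 47.9% of the models that met the minimum, and for 67 members (44.7%) at the 64-cell stage, against 49.7%. The median difference between replicate 2 and replicate 1 was 0.33 on the log2 scale at stage 4tt, 0.36 at the gastrula and 0.25 at stage 7, against 0.03, -0.01 and -0.01 for the models that met the minimum. What set these libraries apart was not tested.

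**Figure D3:**
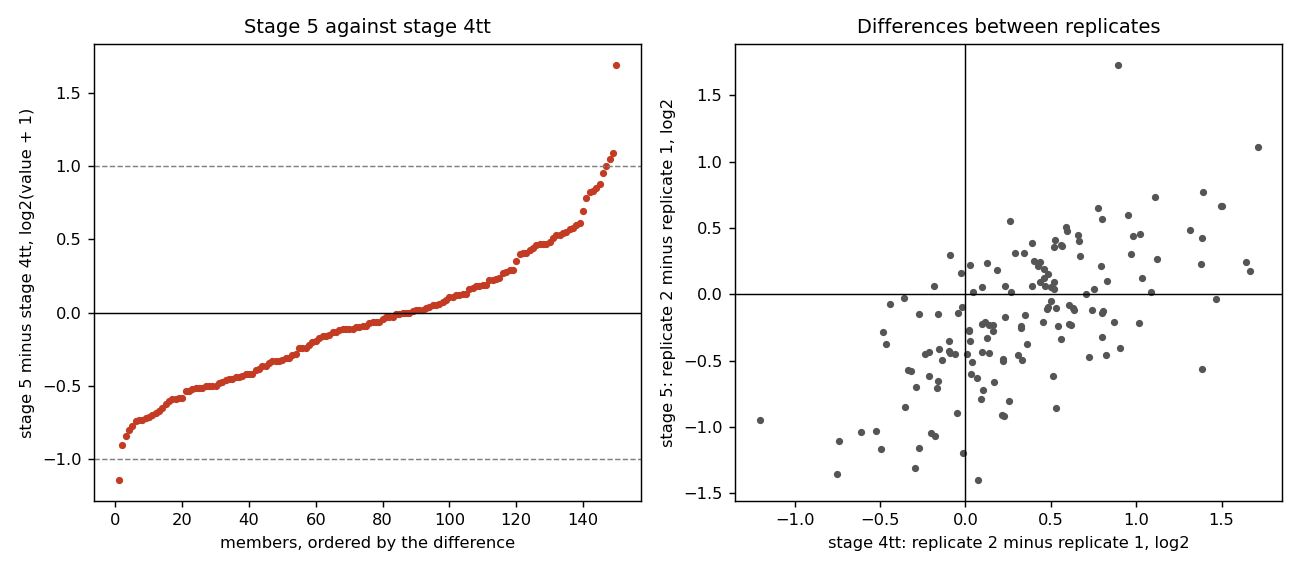
Left, the difference between stage 5 and stage 4tt of each of the 150 members, on the log2(value + 1) scale, with dashed lines at the minimum fold change of 1; the values run from -1.14 to 1.69. Right, for each member, the log2 difference between the replicates at stage 5 against that at stage 4tt, which lie along a rising band (r = 0.644).

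The levels on either side of the peak were compared next, since the rule used only the highest of the 6 other libraries and not which stage it came from, although it bounded both stages from above. Stage 7 was called higher than the gastrula for 47 members (31.3%) and lower for 5 (3.33%). Of all models tested, 18.9% were called higher and 12.2% lower, and of the 16773 models that met the minimum, 20.1% were higher and 19.4% lower. The median log2 fold change was 0.86 over the members, 0.84 over the 148 members above 0 at both stages, and 0.11 over all models tested. For the 47 members that rose, the median level was 182 normalized counts at stage 7, against 20.6 at the gastrula. The remaining 98 members did not pass the test. With 1 library omitted at a time, 35 to 53 members were called higher, the fewest without stage 7 replicate 2, and 2 to 6 were called lower, with 2 without gastrula replicate 2 or without stage 7 replicate 1.

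Among the members with the largest rises, CTELG00000029496.1 had 129.5 and 75.3 normalized counts at stage 7 and was listed at 0 in both gastrula libraries (adjusted p = 5.49e-05 by limma). It had been present in the 64-cell embryo, at 25.2 and 9.05, and reached 607 and 429.9 in stage 4tt samples and 932 and 416 in stage 5 larvae. CTELG00000000944.1 had 401 and 479 normalized counts at stage 7, against 10.6 and 2.1 at the gastrula. The log2 fold change of this member was 6.20 with a standard error of 0.63 (adjusted p = 9.15e-05 by limma). Both were called under all 17 alternative fits, with an adjusted p of at most 0.00132 for CTELG00000029496.1 and 0.00244 for CTELG00000000944.1.

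All 5 members that were lower at stage 7 than at the gastrula are given here, 3 of them chosen after their values were seen. CTELG00000027470.1 had 572 and 609 normalized counts at stage 7, against 1962 and 2335 at the gastrula (log2 fold change -1.86 with SE 0.40, and adjusted p = 0.00545 by limma), and it was called under all 17 alternatives. The other 4 depended on particular libraries or settings. CTELG00000005530.1 had 6.45 and 12.4 at stage 7, against 35.3 and 41.2 at the gastrula, a log2 fold change of -1.97 (SE 0.56) that lost its call without gastrula replicate 1 (-2.08), gastrula replicate 2 (-1.86) or stage 7 replicate 1 (-1.54). CTELG00000001254.2 had 33.2 and 0 at stage 7, against 256 and 89.8 at the gastrula. Its log2 fold change of -4.71 (SE 1.32) became -2.16 without stage 7 replicate 2 and -7.26 without stage 7 replicate 1, and the call was lost without gastrula replicate 1 (-3.96), with a pseudocount of 0.1 (-6.38) and when only the libraries of stage 7 and the gastrula were fitted (-4.71). CTELG00000011870.1 had 249 and 375 at stage 7, against 504 and 1102 at the gastrula, and its log2 fold change of -1.28 (SE 0.37) was -0.72 without gastrula replicate 2 and -0.99 without stage 7 replicate 1, in both cases with no call, and the call was also lost when only these 2 stages were fitted. CTELG00000000442.1 had 67.2 and 106 at stage 7, against 145 and 282 at the gastrula, and was called under only 6 of 17 alternatives. Its log2 fold change of -1.25 (SE 0.43) was -0.77 without gastrula replicate 2, -0.92 without stage 7 replicate 1 and -1.57 without stage 7 replicate 2, and it lost its call in each of these fits and also without either 64-cell or either stage 5 library, where it stayed at -1.25. The same call was lost with median-ratio scaling (-1.18), with no filter (-1.25), with a pseudocount of 0.1 (-1.26) and when these 2 stages alone were fitted (-1.25).

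**Figure D4:**
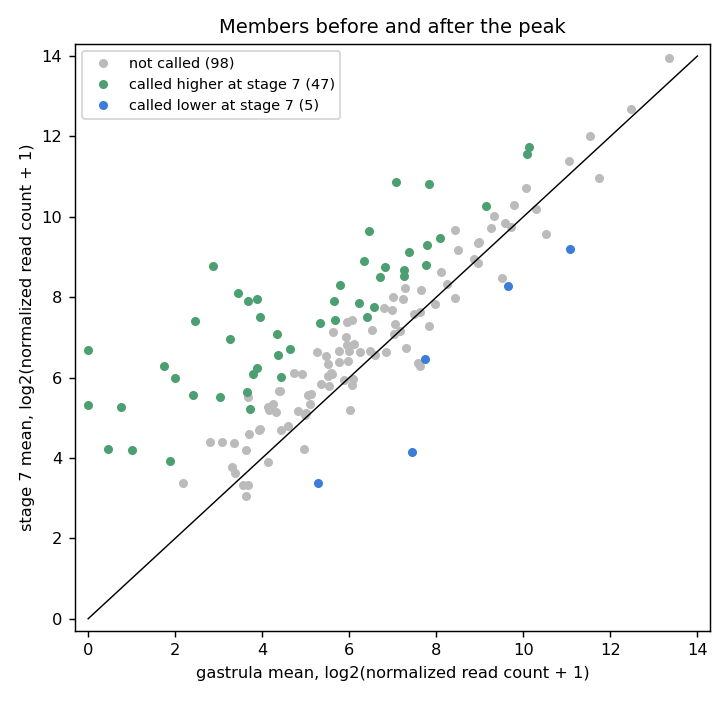
Mean level of each member at stage 7 (vertical axis) and at the gastrula (horizontal axis), as log2(normalized read count + 1), with the line of equal levels. The 47 members called higher at stage 7 lie above the line, the 5 called lower lie below it, and the 98 without a call lie on both sides of it, with log2 fold changes between -1.25 and 2.64.

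The gastrula was then compared with the 64-cell embryo to see how far the members had changed before the peak. Here too the rule bounded both stages from above, so the counts called are not free of the choice of members. At the gastrula 81 members (54%) were called higher and 10 (6.67%) lower, where 22.3% of all models tested were called higher and 21.9% lower. Of the 16773 models that met the minimum, 35.6% were called higher and 23.1% lower. The 81 members that rose had a median level of 114 normalized counts at the gastrula, against 7.94 at the 64-cell stage, and 12 of them were listed at 0 in both 64-cell libraries. The 10 members that fell had a median of 10.7 at the gastrula, against 49.9 at the 64-cell stage, and 2 of them were listed at 0 in both gastrula libraries. The remaining 59 members did not pass the test and had a median of 27.1 in gastrulae, against 24.5 in 64-cell embryos. CTELG00000015843.1 changed most among the members above 0 at both stages, with a log2 difference of 10.52 and a standard error of 0.43 (adjusted p = 4.46e-07 by limma).

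Stage 7 was finally compared with the 64-cell embryo, which asks whether the members returned to their earliest level after the peak. The rule bounded both of these stages from above, so the counts called partly reflect how the members were chosen. At stage 7, 112 members (74.7%) were still called higher and 1 (0.667%) lower, where 28.2% of all models tested were called higher and 20.4% lower. Among the 16773 models that met the minimum, these shares were 36.5% and 24.6%. The 112 members had a median of 162 normalized counts at stage 7, against 8.88 at the 64-cell stage. This comparison and the preceding ones share the libraries of stage 7, the gastrula or the 64-cell stage. The number called higher was lowest, at 99, without stage 7 replicate 2. The 1 member that was lower, named after its values were seen, was CTELG00000004470.1, with 15.2 and 13.2 normalized counts at stage 7, against 63.6 and 74.5 at the 64-cell stage (log2 fold change -2.20 with SE 0.53, and adjusted p = 0.00694 by limma, at most 0.038 over the alternatives). It had 4.1 and 1.32 at the gastrula before reaching 156 and 223 in stage 4tt samples and 213 and 139 in stage 5 larvae.

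The contrasts that the rule itself used are given as a description. Stage 4tt was called higher than the gastrula for 139 of the 150 members, where 10.7% of all models tested were called higher. Stage 7 was called lower than stage 5 for 87 members, where 2.08% of all models were called lower. For the other 63 members the libraries of stages 5 and 7 did not overlap, by construction. Their adjusted p, which uses the spread between duplicates at all stages, was not under 0.05. Among the 5 most abundant members, CTELG00000015843.1 (adjusted p = 0.0605 by limma), CTELG00000000614.1 (0.0669) and CTELG00000001524.1 (0.069) were among those 63.

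The members belonged to 148 gene identifiers, and 139 of them (92.7%) were the only transcript model of their gene. Of all models in the deposited values 84.6% were the only model, and of the 16773 that met the minimum 76.5% were. For the 11 other members, reads that fit several models of a gene were divided among these models, so their values can trade with each other. The gene of CTELG00000001254.2 had 4 models. CTELG00000001254.2 itself was listed at 0 in both 64-cell libraries and had 634 and 592 normalized counts in stage 4tt samples and 722 and 566 in stage 5 larvae, whereas CTELG00000001254.4 had 1157 and 1832 in 64-cell embryos and stood at 0 in all 4 libraries of the peak. The remaining models of this gene, CTELG00000001254.1 and CTELG00000001254.3, were abundant throughout the peak and had scores of -0.66 and -1.03. Within this gene, only 1 model thus had a score above 0. By its mean level CTELG00000001254.1 was nevertheless highest at stage 5. Its weakest peak library, stage 4tt replicate 2 with 671, lay below stage 7 replicate 2 with 1063. CTELG00000001254.3 was highest at stage 7. Likewise, CTELG00000008855.2 was a scarce member, with 83.3 and 71.7 in stage 4tt samples and 132 and 97.3 in stage 5 larvae, beside CTELG00000008855.1, which had 1141 and 1020 in stage 4tt samples, 1119 and 1003 in stage 5 larvae and 1278 and 1101 in stage 7 larvae and thus showed no peak.

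In other genes several models peaked together. CTELG00000001771.3 had 409.5 and 604 normalized counts in stage 4tt samples, 604 and 784 in stage 5 larvae and 128 and 162 in stage 7 larvae, and CTELG00000001771.1 of the same gene, also a member, had 780.2 and 748, 1002 and 732, and 206 and 291. Both models of the gene CTELG00000014528, chosen after its values were seen, were members as well. The remaining model of the gene CTELG00000001771, CTELG00000001771.2, did not meet the minimum. It had 106 and 51.4 in stage 4tt samples, 30.9 and 15.9 in stage 5 larvae, and 34.3 in gastrula replicate 2. When values were summed over the models of each gene identifier before scoring, the genes of 145 of the 150 members were among the 150 genes with the largest scores.

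Some members carried successive identifiers. The sources used here do not say what the order of the identifiers stands for, and this was looked for after the values were seen. With a step of at most 2 between neighbouring gene numbers, 18 of the 148 genes fell into 8 runs. Among the 150 models ranked next by score there were 4 runs holding 8 genes, and the same numbers were found for the 150 after those. The longest run among the members held 4 genes, against 2 in either of those lists. In this run CTELG00000020238.1, CTELG00000020239.1, CTELG00000020241.1 and CTELG00000020242.1 were all among the members with scores of at least 1.89. At stage 5 they had 4679 and 4893, 2507 and 2802, 7488 and 6772, and 1746 and 1771 normalized counts, against 3576 and 3147, 1846 and 1816, 4369 and 3914, and 979 and 1010 at stage 4tt. None of the 4 models was called between these stages (adjusted p between 0.311 and 0.71 by limma).

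At stage 7 the same models, in the same order, had 244 and 547, 218 and 378, 654 and 972, and 161 and 263 normalized counts, and replicate 2 was the higher one for each. The model whose identifier lies between them, CTELG00000020240.1, had another course. It had 2490 and 3212 normalized counts in 64-cell embryos, 70.7 and 72.7 in gastrulae, 688 and 66 in stage 4tt samples, about 50 and 30.7 in stage 5 larvae, and 5.27 and 4.58 in stage 7 larvae. The replicates of this model were thus far apart at stage 4tt, where those of its 4 neighbours were close. Whether the neighbours share near-identical sequences, between which reads could be divided, was not tested.

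**Figure D5:**
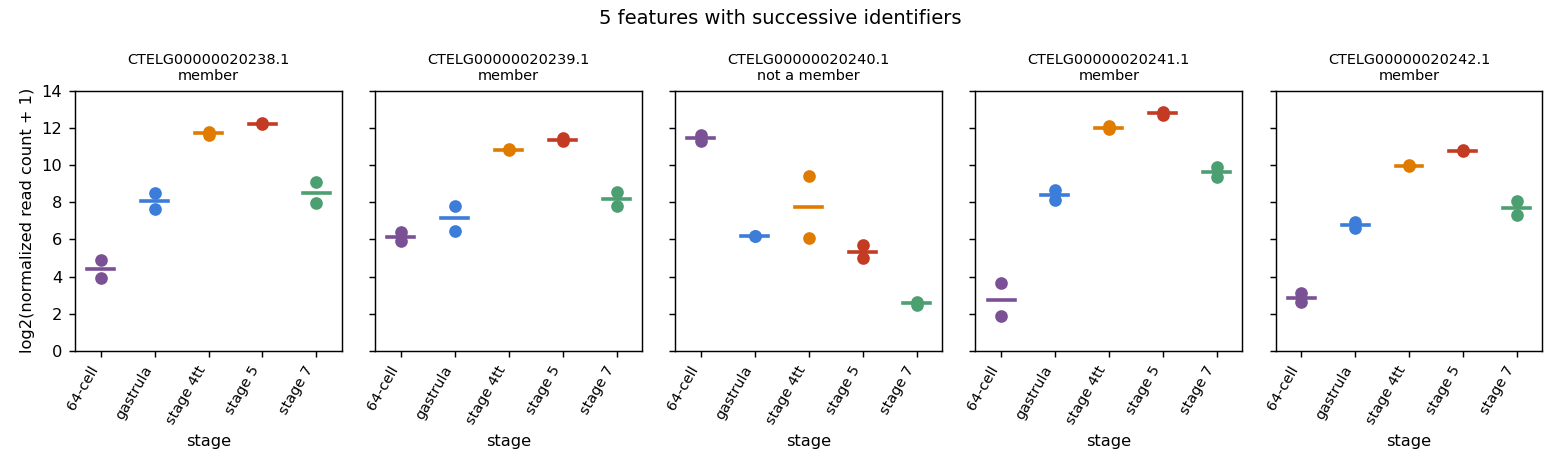
Levels of 5 models with successive identifiers at the 5 stages, as log2(normalized read count + 1); points are the 2 libraries of a stage and the bar is their mean. The 4 members are highest at stages 4tt and 5, whereas CTELG00000020240.1 is highest at the 64-cell stage, with 2490 and 3212 normalized counts.

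The membership of the set was examined by changing the rule. A minimum of 20 in place of 50 kept 129 of the 150 members and a minimum of 100 kept 132. Scores from stage means, which do not ask every library to fall on its side, kept 111. Leaving out 1 library kept between 110 members, without stage 4tt replicate 1, and 147, without 64-cell replicate 2. About the same loss followed from leaving out gastrula replicate 2 (114 kept), stage 5 replicate 2 (115 kept), stage 7 replicate 2 (116 kept) or stage 7 replicate 1 (119 kept).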

How the data were processed

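Total RNA of duplicate *C. teleta* samples at 5 stages was made into strand-specific mRNA libraries. The authors used trimmomatic (v0.39) to trim adaptors and kallisto (v0.46.2) to quantify re-annotated gene models, and normalization across stages was done in DESeq2 (v1.30.1). Thus the deposited signal is a normalized read count per transcript model and not a raw count. The smallest value above 0 in a library was between 0.422 and 0.808, and whole reads were not recovered. No count-based test was run.

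Values were transformed as log2(value + 1), and models above 2 in at least 2 libraries were kept. Stage means were estimated from the 10 libraries together in limma (v3.58.1, eBayes with trend) under R (v4.3.3), and p values were adjusted over all 35526 models by the Benjamini-Hochberg method. The fit was tested on simulated data. Descriptive values used Python (v3.11.15), numpy (v2.4.6), pandas (v2.3.3) and, for plots, matplotlib (v3.10.9). The study describes the duplicates as biological replicates, but whether they came from separate broods is not stated. Standard errors and p values rest on the spread between the 2 samples of a stage, pooled over all stages and moderated across models. They are thus not the spread of the compared stages alone.

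The members, comparisons and lists were chosen with earlier results of these data known. The named members are the 5 largest scores, the 5 largest peak means, up to 2 calls in each direction of stage 7 against the gastrula, up to 3 in each direction of stage 5 against stage 4tt (0 were found), the last member and the first model outside, the member with the most uneven peak libraries, and up to 3 members whose genes have other abundant models. Alternatives were other scalings, filters, pseudocounts, a replicate block, fits restricted to the compared stages, and leaving out each library in turn.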

Additional observations from a re-analysis of the deposited data

How the results depend on the processing

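Of 136 counts of members called higher or lower under the alternatives, 132 were within 1.5 times the reported count. These include counts with little room to move. Between stages 5 and 4tt they stayed at 0 in every setting, and 1 member stayed lower at stage 7 than at the 64-cell stage. The exceptions all concerned members lower at stage 7 than at the gastrula, which numbered 3 with a pseudocount of 0.1, 2 when the fit held no other stage, and 2 to 6 when 1 library was left out. The fit of 4 libraries leaves fewer residual degrees of freedom, and it called 48 members higher at stage 7, against 47 as reported. What lowered the counts of members called lower was not tested. With the replicate block, stage 7 was higher than the gastrula for 51 members and lower for 5, and 0 members were called between stages 5 and 4tt. The labels do not say that libraries with the same number share an origin, and their deviations from the stage means had correlations of 0.221, 0.0372, 0.0323 and 0.00487 across models in the 4 tested comparisons, the highest being that of stages 5 and 4tt. Of the 52 calls between stage 7 and the gastrula, 39 remained without stage 7 replicate 2, the fewest under any alternative. Median-ratio scaling kept 138 of the 150 members.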
